A study of Homo sapiens with 3 samples.

Results

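The cytosolic ribosomal proteins of human HEK-293T cells were read through 167 probe sets of 71 genes, of 54675 probe sets and 21357 listed genes on each array. A probe set was a member when its gene symbol in the platform annotation was RPL or RPS with a number and at most a suffix A, X, L, L1 or AL, or was RPLP0, RPLP1, RPLP2 or RPSA, and when every other gene listed on it was a small nucleolar RNA. Of the 71 genes, 63 encoded common proteins (39 of the large and 24 of the small subunit, with 157 probe sets), and 8 were paralogs with the suffix L, L1 or AL (10 probe sets). The genes lay on 19 chromosomes. A small nucleolar RNA was listed on 46 of the probe sets, in 15 genes, as such RNAs are encoded in introns of ribosomal protein genes.

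The RNA came from unstressed HEK-293T cells (ATCC CRL-11268), a human embryonic kidney line that carries a temperature-sensitive SV40 T-antigen, grown in DMEM with fetal bovine serum. One array was hybridized for each of 3 cultures, with no treatment applied to any of them. The 48 h group held 2 arrays, from cultures seeded with 375000 and 750000 cells (called low-seeded and high-seeded here), and the 24 h group held 1 array, from a culture seeded with 1000000 cells. Harvest time, seeding number and culture therefore cannot be told apart. The RNA integrity numbers were 9.6 (low-seeded, 48 h), 10.0 (high-seeded, 48 h) and 9.5 (24 h).

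Values were MAS5 signals, a linear intensity that summarizes the probes of a probe set. The authors had scaled each array to the same trimmed mean, which came to 500.1 on all 3. A probe set was counted as above background when its signal exceeded, on every array, the 95th percentile of 292 probe sets for receptors and tissue-restricted genes not anticipated in these cells, and these thresholds lay at 94.3 to 123. The label of the cells was checked on markers. Of kidney progenitor genes 3 of 5 measured were above background (EYA1, PAX8, SALL1), as were 3 of 4 neurofilament genes (INA, NEFL, NEFM), which are known from this line. None of 7 genes of mature kidney and 1 of 8 genes of other cells (COL1A1) were above background. A gene was counted here where at least 1 of its probe sets passed. By probe set, 4 of 15 progenitor, 5 of 8 neurofilament, 0 of 14 mature kidney and 1 of 30 other ones passed, against 37.9% on the array. PAX8 passed at 121_at alone, so the progenitor genes are a weak check of the label.

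The ribosome is built from a large and a small subunit, each an RNA core covered by proteins that are, with few exceptions, needed in every dividing cell. Their mRNAs belong to the TOP class, which begins with a cytosine followed by an unbroken run of pyrimidines (the terminal oligopyrimidine tract), and their translation is governed together through mTOR signalling and the protein LARP1. Several ribosomal proteins have a second gene, and some of these paralogs are used mainly in one tissue, such as RPL3L in heart and skeletal muscle and RPL10L in testis.

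All 63 common protein genes measured had a probe set above background. Among all members, 145 of 167 probe sets (86.8%) were above background, against 37.9% of all probe sets on the array. The share was 87.6% for the large subunit (85 of 97) and 86.7% for the small subunit (52 of 60). The median signal of the members was 30891 (low-seeded, 48 h), 31961 (high-seeded, 48 h) and 28687 (24 h). The median of all probe sets was 71.0, 80.3 and 72.8 on the same arrays. On each of the 3 arrays the brightest of all probe sets was one for RPL23A, a large subunit protein near the exit of the peptide tunnel, and these highest signals were 59122, 64464 and 52961.

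The members fell into a bright majority and a long dim tail. A mean signal of at least 20000 was found for 102 probe sets, and these covered 62 of the 63 common genes. The exception was RPL36A, described with its paralog. A further 18 members lay between 1000 and 20000, and 25 were above background but under 1000. No paralog reached the bright range, but this depends on where the cut was put. The cut of 20000 lay between the highest mean of a paralog (14461.5, RPL26L1) and the lowest of a bright member (21620, RPL13A). These are signals of different probe sets, so the split does not rank the levels of paralogs and common proteins. The bright members varied little between the arrays, with a median SD of 0.11 across the 3 arrays on the log2 scale. The 3 cultures differed, so this SD is no measure of precision. This SD ran from 0.0076 for RPS25, read at 24296, 24324 and 24530 on the low-seeded, 24 h and high-seeded arrays, to 0.23 for RPL10. Over all probe sets above background the median was 0.15, and over members not above background it was 0.86.

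**Figure D1:**
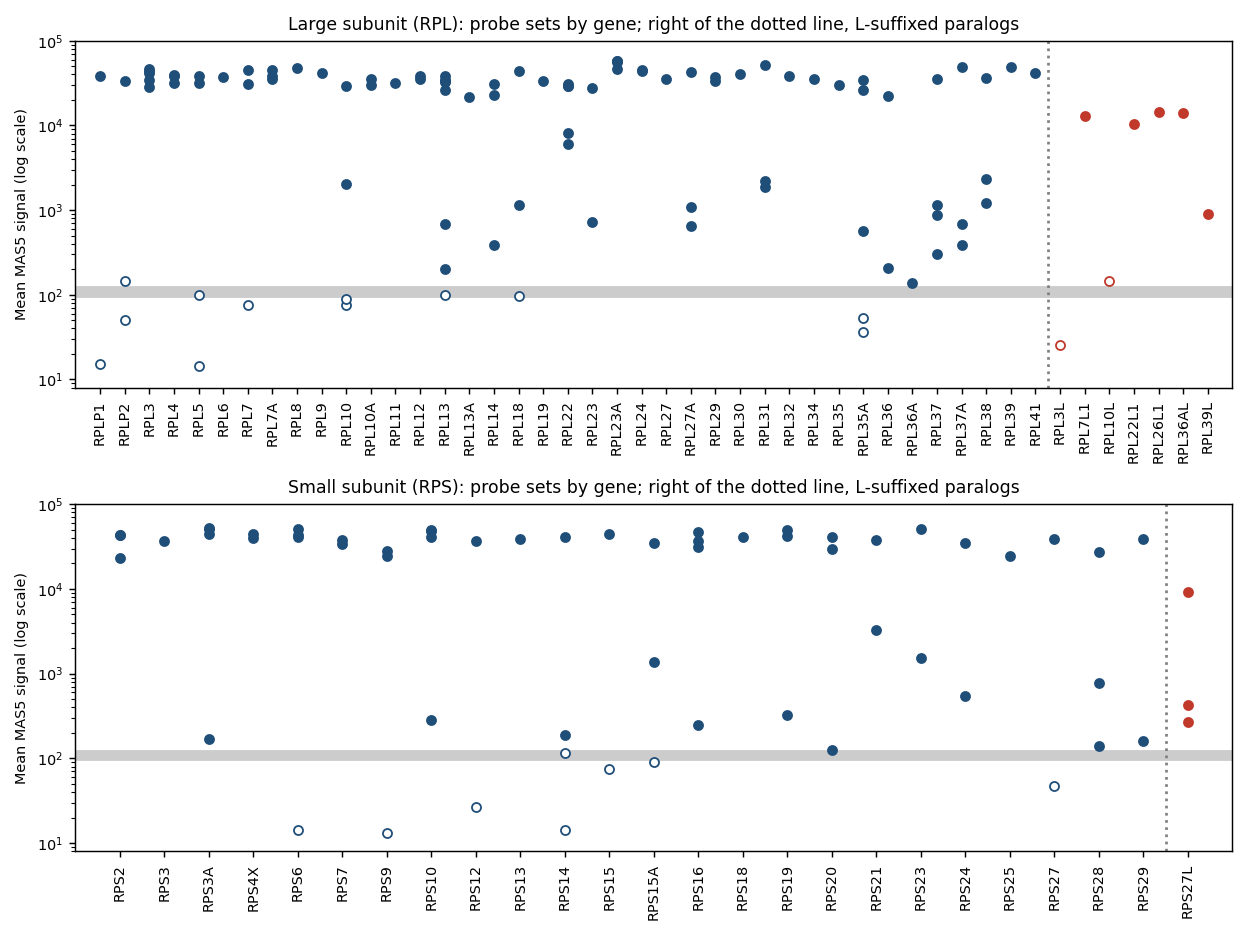
Mean MAS5 signal of the 3 arrays (log scale) for each member probe set, by gene, with filled circles for probe sets above background on all 3 arrays and open circles for the others. The grey band marks the thresholds of 94.3 to 123. All common genes but RPL36A have a point at 20000 or higher, and 15 of them also have an open circle.

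Of the 22 members that were not above background, 11 exceeded the threshold on no array and 11 on 1 or 2 arrays. They belonged to 17 genes, and 15 of these had a bright probe set as well. The other genes among the 17 were the paralogs RPL3L and RPL10L. Affymetrix marks with _at a probe set read as unique, with _s_at one that can match several transcripts and with _x_at one that can match other sequences. Of the members not above background 16 were of the first kind, 3 of the second and 3 of the third. Only 12 of 55 unique members were bright, against 36 of 48 and 54 of 64 of the other kinds. Ribosomal proteins have many processed pseudogenes, so a share of the signal of the last 2 kinds could be read from other transcripts, and this share was not measured.

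Of the members under the threshold on every array, the 5 of lowest mean signal are described, with no order among them, and they belonged to RPS9, RPS6, RPS14, RPL5 and RPLP1. The probe set 1557981_at of RPS9, a small subunit protein, read 16.2, 18.5 and 4.75 on the low-seeded, high-seeded and 24 h arrays, whereas its probe set 217747_s_at read 28981, 29443 and 25831. RPS6, the substrate of the S6 kinases, read 13.0, 17.9 and 11.5 at 211690_at, while its other 3 probe sets had means of 41464 to 50473. RPS14, which lies in the region lost in the 5q- syndrome, had a mean of 14.2 at 217298_at and of 41597 at 208645_s_at. These are different stretches of sequence and their levels cannot be ranked. RPL5, part of the 5S RNA particle that binds MDM2, had a mean of 14.3 at 210035_s_at and of 31898 at 200937_s_at.

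The 3 array signals of RPLP1, an acidic protein of the ribosomal stalk, were 38216 (low-seeded, 48 h), 40652 (high-seeded, 48 h) and 36118 (24 h) at 200763_s_at. Its second probe set, 244191_at, had a mean of 15.4 ± 6.39 (SD, n = 3). The partner protein RPLP2 read 32505, 36484 and 31880 on the same arrays at 200909_s_at, while 200908_s_at had a mean of 146 and 217670_at lay under the thresholds on every array. RPLP0 and RPSA were not analysed here, nor was RPS27A, which is made as a ubiquitin fusion. FAU, the fusion gene that was measured, encodes a ubiquitin-like protein joined to RPS30 and read 31400, 32464 and 29206.

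The genes with the most probe sets were RPL13, RPL3, RPL22 and RPL35A. RPL13, a large subunit protein, had 8, of which 7 were above background and 5 were bright, with means of 26116 to 38850. RPL3, which lies close to the peptidyl transferase centre, had 5, all bright, with means of 28277 to 45890. RPL22, an RNA-binding protein needed in T cell development, had 5, all above background, with means of 6091 to 30982. RPL35A, mutated in some cases of Diamond-Blackfan anaemia, had 5, of which 3 were above background and those 3 had means of 574 to 34106. Probe sets of one gene thus differed in signal by more than the arrays did, and none of them alone gives the level of the gene.

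Proteins at other sites of the ribosome varied to a like degree between the arrays, here chosen after their values were seen. RPL11, which joins RPL5 on the 5S RNA, read 31487 (low-seeded, 48 h), 31961 (high-seeded, 48 h) and 30407 (24 h). RPS19, the small subunit protein most often mutated in Diamond-Blackfan anaemia, read 48914, 54389 and 45785 at 213414_s_at. RPS4X, a small subunit protein encoded on the X chromosome, read 44671, 46548 and 40999 at 200933_x_at. In all 3 the 24 h signal was the lowest and the high-seeded one the highest.

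A further 19 probe sets named a ribosomal protein gene together with another gene that was not a small nucleolar RNA, and were kept out of the members. Of these 17 were above background and 12 were bright. The genes RPL17, RPL21, RPL28 and RPS26 were listed only on such probe sets. RPL28 stood with a microRNA gene on 2 of them. The stronger read 40779 (low-seeded, 48 h), 43862 (high-seeded, 48 h) and 38036 (24 h), and the other read 1357, 1521 and 1073, the lowest at 24 h in both.

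The first bases of the transcripts were read from the promoter windows of RefSeq (GRCh38.p14), which held 59 of the 71 genes, each window running from 250 bases before to 50 bases after an annotated start. A tract was counted where the start base was C and the run of C or T from it was at least 5 bases long. It was found in 40 of 53 common protein genes (75.5%), in 1 of 6 paralogs (16.7%) and in 947 of 15784 other protein-coding genes (6.00%), a gene being counted where any of its annotated starts had one. Counted by start, the shares were 62.5% (40 of 64), 14.3% (1 of 7) and 4.37%. For a gene with several starts the one with the longest run is printed. The following lines show each paralog beside its common protein where both were held, as 30 bases on the strand of the gene with the first 15 upstream of the start, and capitals mark the run of C or T that begins at the start with a C. They are shown because the pairs differ in this run.
RPL10 (chrX:154398362-154398391, plus): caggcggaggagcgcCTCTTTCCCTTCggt
RPL10L (chr14:46651767-46651796, minus): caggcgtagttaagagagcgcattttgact
RPL22 (chr1:6199581-6199610, minus): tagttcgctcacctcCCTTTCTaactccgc
RPL22L1 (chr3:170870181-170870210, minus): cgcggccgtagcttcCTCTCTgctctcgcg
RPL36A (chrX:101390996-101391025, plus): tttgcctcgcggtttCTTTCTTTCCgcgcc
RPL36AL (chr14:49620612-49620641, minus): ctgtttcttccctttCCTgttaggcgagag
RPS27 (chr1:153990747-153990776, plus): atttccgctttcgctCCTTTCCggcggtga
RPS27L (chr15:63157463-63157492, minus): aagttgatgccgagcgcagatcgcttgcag
The run was 12 bases long in RPL10, at 1 of its 3 annotated starts, and 7 in RPL22, 10 in RPL36A and 7 in RPS27. Among their paralogs only RPL22L1 had a tract, of 6 bases, while RPL36AL stopped after 3 and the starts of RPL10L and RPS27L were no C. RPL7L1 and RPL26L1, whose common proteins were not in the windows used, had no tract at their starts either.

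Further common genes are shown in the next lines. The stalk proteins and RPS6 are shown as members named above, with RPL39 as the longest run found and RPL3 as a gene whose run was too short.
RPLP1 (chr15:69452803-69452832, plus): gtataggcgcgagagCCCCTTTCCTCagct
RPLP2 (chr11:809952-809981, plus): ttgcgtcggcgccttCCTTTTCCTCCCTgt
RPS6 (chr9:19380222-19380251, minus): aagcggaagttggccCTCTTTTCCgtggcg
RPL39 (chrX:119791616-119791645, minus): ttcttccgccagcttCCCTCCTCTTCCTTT
RPL3 (chr22:39319609-39319638, minus): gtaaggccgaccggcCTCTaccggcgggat
RPL39 ran to 19 bases, past the bases printed, and RPL3 stopped after 4. The start of a transcript is an annotation here, and the arrays, which read the 3′ ends, do not measure it. The letters CCGGAAG, on either strand, stood in 26 of 71 member windows (36.6%). Their share was 12.8% in windows of other protein-coding genes and 10.3% in all windows of that length. TATAAA on either strand was present in 8.45% of member windows, 9.47% of those of other protein-coding genes and 11.5% of all. It stood in 4 of 64 windows of common proteins and in 2 of 7 of paralogs. For CCAAT the shares were 32.4%, 34.7% and 34.6%. These matches are descriptions of the windows and no measure of binding.

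**Figure D2:**
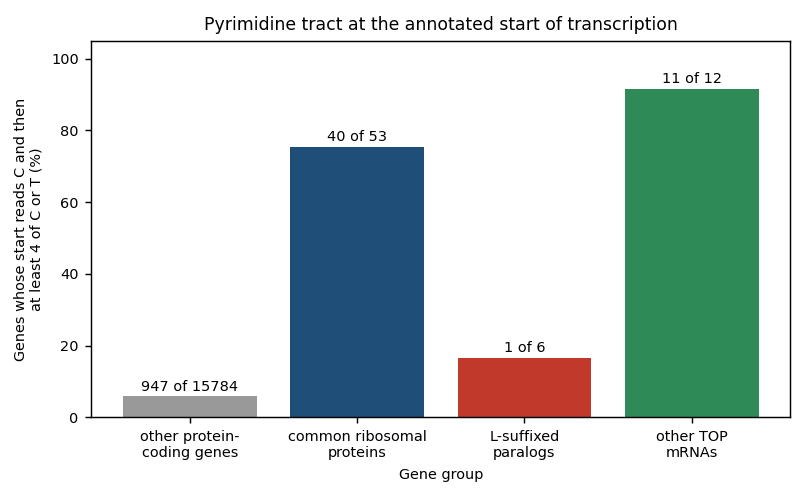
Percent of genes in each set with an annotated start that is a C followed by a run of C or T, at least 5 bases in all. Common ribosomal proteins reach 75.5%, the paralogs 16.7% and other protein-coding genes 6.00%. The other TOP genes, listed because they are known to carry a tract, reach 91.7%.

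Of the 8 paralogs, 6 were above background (RPL7L1, RPL22L1, RPL26L1, RPL36AL, RPL39L and RPS27L), and RPL3L and RPL10L were not on all arrays. RPL7L1, RPL22L1, RPL26L1 and RPL36AL each had a single member probe set, with means of 10339 to 14461. That of RPL7L1 was of the _x_at kind and that of RPL36AL of the _s_at kind, which can match other transcripts. The array signals are given in the order low-seeded at 48 h, high-seeded at 48 h, and 24 h. A level read by one probe set is not set against that of another, so each pair is described side by side only.

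RPL3L, the muscle form of RPL3, read 41.4, 29.0 and 7.06, and so lay under the threshold on every array. RPL3 itself was bright at all 5 of its probe sets. RPL10L, which takes the place of the X-linked RPL10 in male meiosis, read 84.6, 152 and 201, above the threshold on the high-seeded and 24 h arrays but not on the low-seeded one. Its mean of 146 ± 58.7 (SD, n = 3) carried an error of the size of its distance from background. RPL10 read 31348, 31828 and 23960 at 200725_x_at, and only 2 of its 4 probe sets were above background.

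RPL22L1, a paralog that is part of ribosomes in place of RPL22, read 9498, 10633 and 10885, a mean of 10339 ± 739 (SD, n = 3). RPL26L1, nearly identical to RPL26 in its protein, read 15403, 14535 and 13446, a mean of 14461 ± 981. RPL26 itself was not analysed here. RPL7L1, a factor of large subunit assembly in the RPL7 family, read 12891, 13553 and 12472, a mean of 12972 ± 545, and 2 of the 3 probe sets of RPL7 were above background. All 3 lay far above the thresholds on every array, with an SD that was a small fraction of the mean. A further probe set, listed with RPL7L1 and WAC-AS1, read 3356, 3649 and 3815, the highest at 24 h.

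RPL36AL, on chromosome 14, read 14362, 13675 and 13825, a mean of 13954 ± 361 (SD, n = 3). The X-linked RPL36A, which encodes almost the same protein, had the single member probe set 243201_at at 120, 148 and 147, barely above the thresholds. A second probe set, listed with RPL36A and with its readthrough transcript into HNRNPH2, read 51490, 53707 and 47584. The values of these probe sets belong to different stretches of sequence. RPL39L, a form of RPL39 best known from male germ cells, read 905, 938 and 865, a mean of 903 ± 36.5, and its signal was thus steady and above the thresholds on each array. RPL39 read 49169, 49537 and 46909.

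RPS27L, a paralog induced by p53 in many cells, was measured by 3 probe sets, all above background. The strongest, 218007_s_at, read 8807, 8943 and 10139. The second, 222487_s_at, read 483, 402 and 407, and the third, 238935_at, read 213, 184 and 416. The 24 h array was the highest at the first and the third but not at the second. RPS27, whose zinc finger protein lies on the small subunit, read 37729, 41030 and 37697 at 200741_s_at and was under the thresholds at 236621_at.

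**Figure D3:**
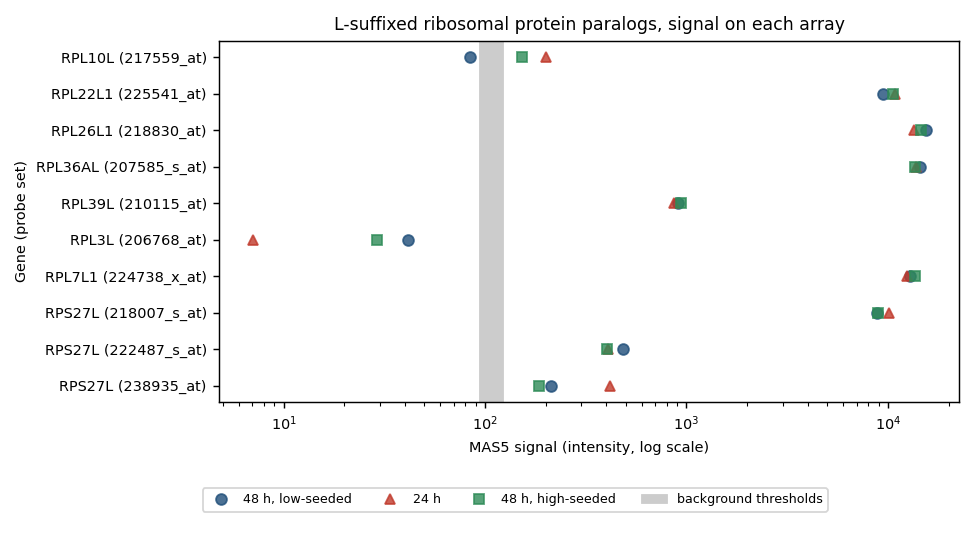
MAS5 signal (log scale) of the 10 probe sets of the 8 L-suffixed paralogs on each of the 3 arrays, with the background thresholds as a grey band. RPL3L lies under the band on all arrays, RPL10L on both sides of it, and the strongest probe sets of RPL7L1, RPL22L1, RPL26L1, RPL36AL and RPS27L lie between 8807 and 15403.

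The 24 h and 48 h arrays were compared with limma on log2 of the signal plus a constant of 19.6, over 22662 probe sets with 147 members among them. Only 1 residual degree of freedom was present, and the lone 24 h array was assumed to vary like the 48 h pair. The spread behind the p-values thus came from the 48 h pair, with variance shared across probe sets. That pair differed in seeding, so it is no true replicate of one condition. No member reached an adjusted p under 0.05 (limma, Benjamini-Hochberg), where 0.304% of all probe sets tested did, 0.0706% with a lower signal at 24 h. At an unadjusted p under 0.05 there were 38 of 147 members (25.9%), where 9.4% of all probe sets tested passed. Of these members 33 were lower at 24 h (22.4%, against 4.36% of all probe sets) and 5 higher (3.40%, against 5.05%). The 38 fell to 21 after quantile normalization, to 22 with no filter on dim probe sets and to 6 without the trend of variance on signal. Of the 147 tested members 102 had a mean signal of at least 20000, whereas the probe sets tested spanned all signal levels. The variance followed signal in the fit, so a bright probe set passed at a smaller difference than a dim one. The share passing among other bright probe sets was not counted, so these shares mix brightness with membership. The 5 higher members were 2 probe sets of RPL38 and 1 each of RPL18, RPL37A and RPS27L. RPL38, a small protein of the large subunit, read 1972 (low-seeded, 48 h), 2223 (high-seeded, 48 h) and 2853 (24 h) at 202028_s_at, outside the 48 h range (0.44 ± 0.12, SE, limma adjusted p 0.145), but 36198, 39143 and 33796 at its bright probe set (-0.16). RPL18, also of the large subunit, read 1002, 1080 and 1360 at 222297_x_at and 43982, 47515 and 41452 at its bright probe set.

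Most signals of the ribosomal proteins lay lower at 24 h. Of the 147 tested members 123 had a negative log2 difference of 24 h minus 48 h (83.7%), against 49.2% of all probe sets, and the median was -0.14 against 0.0047. The medians were -0.14 over 86 probe sets of the large and -0.15 over 52 of the small subunit, and -0.0037 and -0.0078 after quantile normalization. Among the paralogs 5 of 9 were negative, with a median of -0.02 that turned to 0.01 after quantile normalization. Bulk RNA cannot tell fewer cells of a kind from less RNA per cell.

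The bright members made up most of these. On the 24 h array 92 of the 102 had their lowest signal of the 3 arrays, whereas 35.4% of all probe sets tested were under both 48 h arrays there. The high-seeded array was the highest in 96 of 102. Among 151 other bright probe sets of 1 gene the 24 h array was the lowest in 106 (70.2%, against 90.2% of the bright members) and the high-seeded array the highest in 113 (74.8%, against 94.1%). In 89 of the 102 bright members the order ran from 24 h over low-seeded to high-seeded, so the arrays of the 48 h group also parted from each other. Relative to its own mean over the arrays, a bright member stood at a median of 92.8% on the 24 h array, 99.6% on the low-seeded and 108% on the high-seeded one. The median log2 difference of the bright members was -0.16 (10.4% lower), with quartiles of -0.21 and -0.12. The median between the 48 h arrays, low-seeded minus high-seeded, was -0.11, and that between 24 h and low-seeded was -0.10. The median between 24 h and high-seeded was -0.20. The 24 h array thus lay as far from the low-seeded array as the 48 h arrays, themselves seeded differently, lay from each other, and farther from the high-seeded one. The 45 tested members under 20000 were split evenly, with 23 lower and 22 higher at 24 h and a median of -0.0063.

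**Figure D4:**
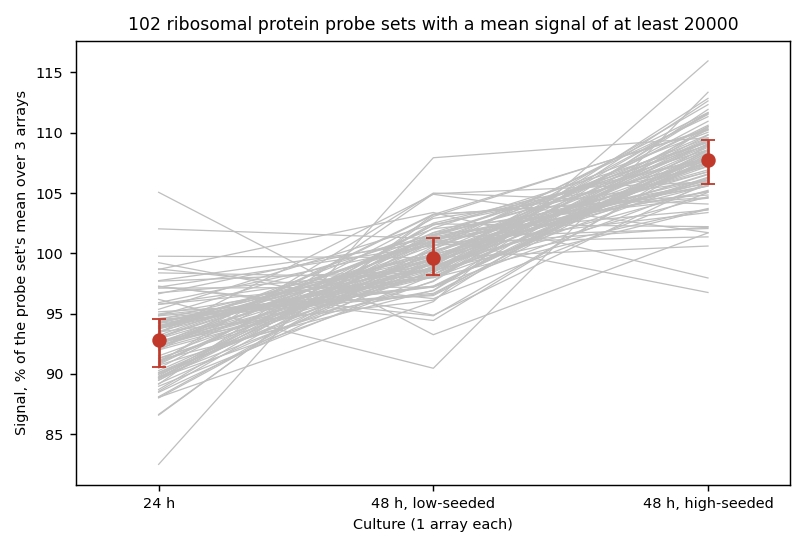
Signal of each of the 102 bright members as a percent of its own mean over the 3 arrays, one grey line per probe set, with arrays on the horizontal axis, red points for medians and red bars for quartiles. The medians are 92.8% at 24 h, 99.6% for the low-seeded and 108% for the high-seeded 48 h array.

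Other bright probe sets also lay lower at 24 h. Of the 151 further probe sets of 1 gene at 20000 or higher, 126 were lower at 24 h (83.4%), with a median of -0.09, against 100 of 102 members (98.0%). Where only means of at least 30000 were taken, the medians were -0.16 over 85 members and -0.13 over 46 others, and 97.6% and 93.5% were lower. The difference between members and the others was not tested. The highest signal of each array followed the same order, at 52961 (24 h), 59122 (low-seeded) and 64464 (high-seeded). These signals came from probe sets of the member RPL23A, so they say nothing further on the other bright probe sets. All 102 bright members were among the 1093 strongest probe sets, the 2% left out of the trimmed mean, on every array, so they took no part in the scaling.

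After quantile normalization, which gives all arrays the same distribution, the median of the bright members was -0.0029, with 52 of 102 lower at 24 h (23 of 45 among the members under 20000), and that of the other bright probe sets was 0.0057. This step sets the top of each array equal, so a shift shared by the bright probe sets is removed by construction. The 102 bright members stood there beside 151 other bright probe sets of 1 gene. How much of a shift of the members alone the step removes was not tested. The ratio of 3′ to 5′ control signals also differed between the arrays. For ACTB it was 1.18 at 24 h, 1.10 on the low-seeded and 1.14 on the high-seeded array, and for GAPDH it was 0.930, 0.906 and 0.876. The part of RNA quality and of array brightness in these differences was not tested.

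**Figure D5:**
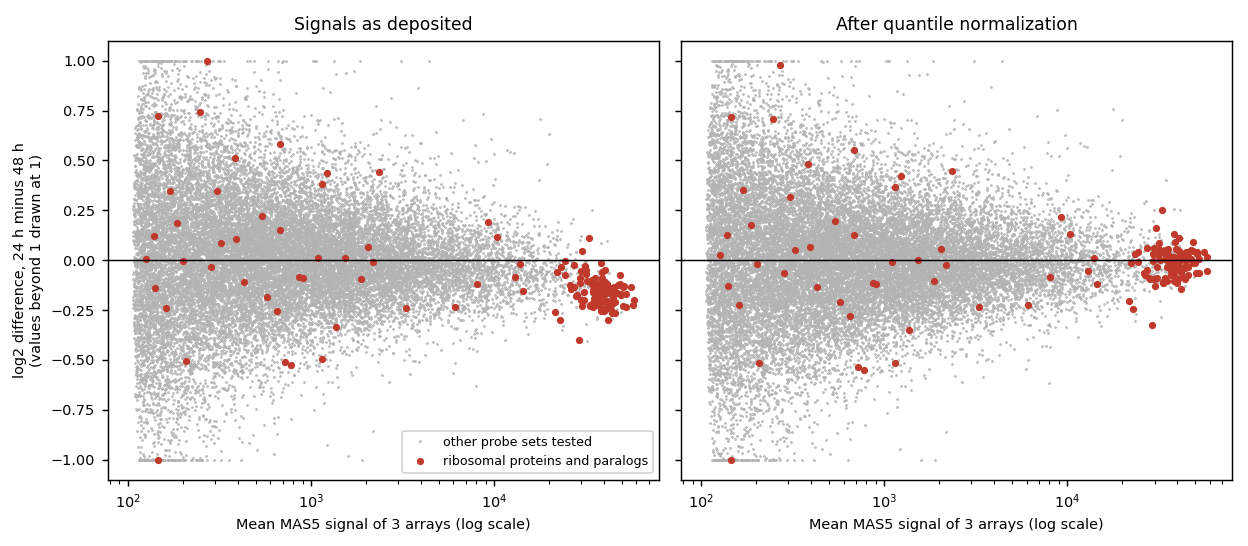
Log2 difference of 24 h minus 48 h (48 h being the mean of its 2 arrays) against mean signal on a log axis, for all 22662 tested probe sets (grey) and the 147 tested members (red), as deposited (left) and after quantile normalization (right), with values beyond 1 drawn at 1. The bright members centre on -0.16 at left and on -0.0029 at right, and the members under 20000 scatter on both sides of 0.

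The single members with the largest differences were nearly all dim. The lowest was the stalk protein RPLP2 at 200908_s_at, which read 156 (low-seeded, 48 h), 257 (high-seeded, 48 h) and 24.0 (24 h). The 24 h array was under the background threshold and under both 48 h arrays. With the 24 h array at background, the geometric mean of the 48 h arrays was at least 2.13-fold higher, taken over the 24 h threshold of 94.3. This bound holds for the mean only, as the low-seeded array at 156 lay closer to that threshold. The fitted log2 difference was -2.34 ± 0.51 (SE), with an adjusted p of 0.0593 by limma, and it moved with the added constant, to -1.46 with 4 times the constant and to -3.06 with none. The bright probe set of the same gene differed by -0.11 (adjusted p 0.806 by limma), and by 0.04 after quantile normalization.

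The next lowest were RPS28, RPL23, RPL36 and RPL37, all with a 24 h signal under both 48 h signals. RPS28, a small subunit protein, read 857, 883 and 599 at 208903_at (-0.52 ± 0.18, limma adjusted p 0.313). RPL23, which can bind MDM2, read 899, 713 and 557 at 214744_s_at (-0.51 ± 0.20, limma adjusted p 0.401). RPL36 read 229, 236 and 158 at 231658_x_at, and RPL37 read 1244, 1292 and 894 at 224767_at, with differences of -0.51 and -0.49. The brightest probe sets of these 4 genes differed by only -0.13 (RPS28), -0.03 (RPL23), -0.06 (RPL36) and -0.11 (RPL37), and those of RPL23 and RPL37 turned to 0.06 and 0.05 after quantile normalization.

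The largest positive differences belonged to RPS27L, RPS16, RPL10L and RPL37A, and the 24 h signal was again outside the range of the 48 h arrays in each. RPS27L at 238935_at differed by 1.00 ± 0.33 (limma adjusted p 0.275), and its strongest probe set by 0.19 ± 0.09 (limma adjusted p 0.545). RPS16, a small subunit protein, read 151, 249 and 339 at 226130_at (0.74 ± 0.36), while its 3 bright probe sets differed by -0.23 to -0.03, and by -0.08 to 0.08 after quantile normalization. RPL10L differed by 0.72 ± 0.46 (limma adjusted p 0.681), and its low-seeded array did not exceed background. RPL37A, a zinc finger protein of the large subunit, read 520, 647 and 878 at 214041_x_at (0.58 ± 0.20) and 293, 377 and 483 at 213459_at (0.51 ± 0.27), and its bright probe set differed by -0.12, or 0.05 after quantile normalization. In none of these was the limma adjusted p under 0.05. Of 42 genes with several tested probe sets, 17 held differences of both signs.

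Among the bright members RPL10 had the largest difference, at -0.40 ± 0.10 (limma adjusted p 0.0940), and its 24 h signal of 23960 was well under 31348 and 31828. After quantile normalization it was -0.33 with a limma adjusted p of 0.0281. None of the other paralogs had a difference past its test. The differences were 0.11 ± 0.10 for RPL22L1, -0.15 ± 0.09 for RPL26L1, -0.02 ± 0.09 for RPL36AL (0.01 after quantile normalization), -0.08 ± 0.09 for RPL7L1 and -0.09 ± 0.16 for RPL39L. Each is within 2 SE of 0, so changes of that size were not detectable with 1 array at 24 h.

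Another 14 genes known to carry a TOP tract were read on the same arrays. Translation factors are among them, but they were listed for the tract and not for one function. All 14 genes were above background, with 44 of 49 probe sets. Of 46 tested 31 were lower at 24 h and 15 higher, with a median of -0.11 that became 0.0013 after quantile normalization. The 19 bright ones were all lower at 24 h, with a median of -0.14, against 10 of 19 and -0.0030 after quantile normalization. The 46 others of at least 30000 given above held 12 probe sets of this list. Of the 34 left, 31 were lower at 24 h, with a median of -0.12. Whether the TOP genes differ from other bright probe sets was not tested. NPM1, a nucleolar chaperone of ribosome assembly, read 38621, 39594 and 31923 at 200063_s_at (-0.29, limma adjusted p 0.291). FAU differed by -0.13 (limma adjusted p 0.748). A tract stood at the annotated start of 11 of the 12 genes of this list that the windows held (91.7%). The genes were listed because they are known to carry a tract, so this share is no independent result.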

How the data were processed

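RNA of 3 cultures was hybridized to Affymetrix Human Genome U133 Plus arrays. The deposited values are intensity: the authors computed MAS5 signals with GCOS 1.0 and scaled each array to a trimmed mean of 500.1, which leaves out 2% at either end. No counts or depth exist for arrays, and their number limits the precision. Gene names come from the platform annotation, which named 1 gene on 41097 probe sets, several on 1801 and none on 11777. All 167 member gene identifiers matched RefSeq.

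Background thresholds, log2(signal + 19.6) and limma 3.58.1 (lmFit, eBayes with trend, Benjamini-Hochberg, R 4.3.3) were used over probe sets whose mean exceeded 106. The added constant shrinks log2 differences of dim probe sets. The fit was tested on simulated data. Members and lists were chosen with earlier results of these data known. Probe sets named were, by rule, the paralogs and their common proteins, stalk and ubiquitin fusion proteins, RPS6, the 5 lowest signals, the 5 largest differences in each direction and the genes with most probe sets. RPL11, RPL18, RPL23A, RPL28, RPL38, RPS4X, RPS19, RPS25 and NPM1 were named after their values were seen. Protein sequences were not analysed here.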

Additional observations from a re-analysis of the deposited data

How the results depend on the processing

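Counts of members above background ran from 139 (99th percentile) to 151 (2 arrays sufficing) around 145, and from 146 to 149 with 1 array left out, but without _s_at and _x_at probe sets they fell to 39 of 55. Paralog genes above background ran from 4 to 7 around 6, and from 6 to 7 with 1 array left out. The 4 were counted without _s_at and _x_at probe sets, where RPL7L1 and RPL36AL dropped out. RPL10L joined without the low-seeded array. The median difference of -0.14 became -0.0048 after quantile normalization, ran from -0.19 to -0.09 with 1 array of the 48 h pair left out (a value with no test) and was -0.07 over the 40 tested _at probe sets alone. Over the 102 bright members, with a median of -0.16, it was -0.07 relative to other bright probe sets, an alternative chosen after seeing the data. No member was called by limma (38 at an unadjusted p under 0.05, and 6 to 41 over the alternatives, with 6 lacking the variance trend), but 1 was with a floor of 1 and no added constant (RPLP2 at 200908_s_at, -3.06, limma adjusted p 0.0462, of a range of 0.0462 to 0.763 over the alternatives) and 1 after quantile normalization (RPL10). The 10 largest differences kept their sign under the alternatives run. They were picked for their size and every alternative used the same 24 h array, so this is no independent support. After quantile normalization 50 of 147 tested members, 48 of them bright, changed sign, RPL36AL among them. No paired analysis was possible because the labels give no replicate numbers and the 24 h group holds 1 array.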
